A study of Mus musculus with 8 samples.

Results

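The regions described here were sites of open chromatin that satellite cells held when taken straight from muscle, before and after injury, and for which no peak was called in the control siRNA libraries of cells cultured towards differentiation. ATAC-seq, an assay that reads open DNA from where a transposase inserts adapters, was applied to hindlimb satellite cells, the stem cells of muscle, from C57BL/6 mice. There were 8 libraries in 4 groups of 2. LncMyod Knockdown cells were cultured in differentiation conditions and were treated for 48 h before harvest with an siRNA that targets the long noncoding RNA LncMyod. LncMyod Control cells were cultured in the same way with a control siRNA. ASC were cells isolated 2.5 days after muscle injury, and QSC were freshly isolated cells with no injury recorded. Neither received an siRNA. The siRNA libraries share culture, culture medium and transfection, so these cannot be told apart when they are set against isolated cells. The sort of the cells, the animals or cultures behind each replicate, and the LncMyod level left after knockdown are not stated in the labels.

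Peaks of all 8 libraries on chromosomes 1 to 19 were merged where they overlapped, which gave 139157 regions. A library held a region when a peak of that library shared 1 bp or more with it. Members were the regions held by both ASC and both QSC libraries and by neither LncMyod Control library. There were 1292 members, or 0.928% of all merged regions and 3.34% of the 38670 regions that all 4 libraries of isolated cells held. Of the rest of those 38670, 1264 were also held by 1 LncMyod Control library and 36114 by both. The members were thus chosen by the presence of peaks in ASC and QSC and their absence in LncMyod Control. The strength of these peaks and their lack in LncMyod Control are therefore a description and carry no test. In bulk libraries, fewer cells with an open site and less opening per cell cannot be told apart. The direction of a difference between ASC and QSC, the genomic position and the sequence were not used by the rule. However, it asked for a peak in all 4 libraries of isolated cells, which limits in advance how far ASC and QSC can differ at a member. Whether a LncMyod Knockdown library held a region was not used either. LncMyod Knockdown peaks were part of the merge, though, and so help to set the extent of regions.

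Satellite cells rest in a quiescent state, enter the cell cycle after injury, and either return to quiescence or differentiate and fuse into muscle fibres. On the way the myogenic factors Myf5, MyoD and myogenin act in turn, and enhancers open and close. Regions far from gene starts tend to differ more between cell states than promoters do, which are open in many cell types. Chromatin of satellite cells is also known to change during their isolation and culture.

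The members held few promoters, and the DNA of a pair of them is shown here because both belong to chemokine genes of 1 cluster. Cxcl3 and Cxcl2 encode secreted chemokines that attract neutrophils. The Cxcl3 window lies at chr5:90785851-90786150 and the Cxcl2 window at chr5:90903649-90903948, both on the plus strand of GRCm38.p6. Both run from 250 bases before the RefSeq start to 50 bases after it, and both lie whole inside their member. Capitals mark every run of 10 or more bases that both windows share in the same orientation.
Cxcl3: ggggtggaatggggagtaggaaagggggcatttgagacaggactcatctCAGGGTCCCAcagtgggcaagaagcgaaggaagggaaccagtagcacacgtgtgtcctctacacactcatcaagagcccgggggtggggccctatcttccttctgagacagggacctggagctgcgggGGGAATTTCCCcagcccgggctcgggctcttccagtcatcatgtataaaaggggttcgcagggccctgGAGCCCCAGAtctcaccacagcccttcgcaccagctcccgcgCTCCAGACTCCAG
Cxcl2: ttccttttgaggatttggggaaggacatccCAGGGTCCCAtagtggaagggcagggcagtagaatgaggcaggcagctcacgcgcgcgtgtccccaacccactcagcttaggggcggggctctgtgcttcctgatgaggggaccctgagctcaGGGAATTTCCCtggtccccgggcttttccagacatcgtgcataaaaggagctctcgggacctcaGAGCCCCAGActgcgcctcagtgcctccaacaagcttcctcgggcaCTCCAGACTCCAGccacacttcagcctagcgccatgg
The 4 shared runs stood in the same order in both windows except for the distances between them. CTCCAGACTCCAG occurred in 4 of 31365 RefSeq promoter windows and GGGAATTTCCC in 14 of them (0.0446%), each in these 2 member windows among others. GGGAATTTCCC, a palindrome of the kappaB type read by NF-kappaB factors in other promoters, began at position -73 from the start of Cxcl3 and at position -97 from the start of Cxcl2. A match of letters is not a binding site.

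A second pair shows members whose promoters differ in base composition. Ppp1r36, a regulatory subunit of protein phosphatase 1, has its window at chr12:76417349-76417648 on the plus strand of GRCm38.p6, and Usp54, a member of the ubiquitin-specific peptidase family, has its window at chr14:20618305-20618604 on the minus strand. Capitals mark CG dinucleotides.
Ppp1r36: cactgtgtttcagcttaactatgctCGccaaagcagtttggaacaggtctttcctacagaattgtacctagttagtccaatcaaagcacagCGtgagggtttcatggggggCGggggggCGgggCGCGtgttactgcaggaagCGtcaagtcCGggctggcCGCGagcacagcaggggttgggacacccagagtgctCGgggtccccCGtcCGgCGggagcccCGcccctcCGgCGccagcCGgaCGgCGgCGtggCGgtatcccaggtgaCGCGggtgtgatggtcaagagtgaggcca
Usp54: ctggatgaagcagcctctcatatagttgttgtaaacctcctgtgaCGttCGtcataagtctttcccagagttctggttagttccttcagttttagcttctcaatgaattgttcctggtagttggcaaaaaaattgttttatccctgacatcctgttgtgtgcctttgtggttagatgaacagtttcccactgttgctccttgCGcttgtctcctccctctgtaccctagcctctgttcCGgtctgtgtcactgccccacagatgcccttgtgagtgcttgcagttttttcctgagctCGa
The Ppp1r36 window had 64% G and C with 24 CG dinucleotides, and the Usp54 window had 46.7% with 5. The member over the Ppp1r36 start (chr12:76416408-76417912) was held by both LncMyod Knockdown libraries, and the member over the Usp54 start (chr14:20618256-20618812) by neither.

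In isolated cells the members were mostly weak peaks. Strength is given as the fold enrichment that the authors' peak caller wrote for each peak, over the background of the same library, and a fold was ranked only within its own library. The median fold of the members was 3.31 and 2.79 in the ASC libraries and 3.61 and 3.39 in the QSC libraries, beside 3.84, 3.31, 3.90 and 3.76 over all peaks of those libraries. Of the members, 29.3% and 21.4% ranked above the median peak of ASC replicates 1 and 2, and 40.2% and 37.5% above that of QSC replicates 1 and 2. The strongest 10% of the peaks of each list held between 0.697% and 3.56% of the members. The highest fold of any member was 8.78 and 7.34 in ASC and 9.28 and 9.04 in QSC. Peaks of the members covered a median of 472.5 and 368.5 bp in ASC and 543 and 533 bp in QSC. The merged member regions had a median width of 810.5 bp and ranged over 249 to 3407 bp, against 1128 bp for regions of isolated cells that both LncMyod Control libraries held. Together they spanned 1.19 Mb.

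**Figure D1:**
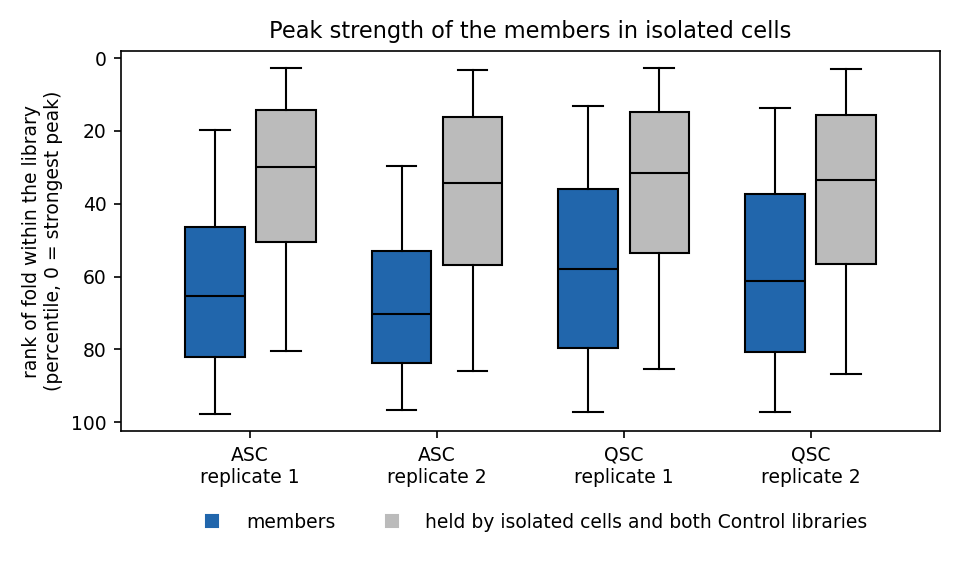
Rank of the fold of member regions (blue) and of regions held by isolated cells and both LncMyod Control libraries (grey) within each ASC and QSC library, as a percentile where 0 is the strongest peak; boxes show quartiles with the median, and whiskers the 5th to 95th percentile. Member medians lie at 65.4 and 70.3 in ASC and 57.9 and 61.3 in QSC, each a weaker rank than the grey median of the same library.

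The 38670 regions of isolated cells were split into 3 bins of equal size by the weakest of their ranks in the 4 libraries. The strongest bin held 19 members, the middle bin 242 and the weakest bin 1031, which is 0.147%, 1.88% and 7.998% of those bins. There were 117 members with a −log10 q of at least 5 in all 4 libraries, among 22714 such regions. At the boundary of the rule, the LncMyod Control peak in the 1264 regions with 1 such peak had a median of 300 bp and a median −log10 q of 2.83, and in 310 of them it was below 2. Inside it, the weakest of the 4 isolated-cell peaks of a member had a median −log10 q of 2.303, and in 481 members it was below 2. Another 1609 regions failed the rule through ASC replicate 2 alone, against 301, 163 and 255 through ASC replicate 1, QSC replicate 1 and QSC replicate 2. ASC replicate 2 had the shortest list of the series.

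Depth is unknown, because the lists hold no read counts. On chromosomes 1 to 19 the LncMyod Knockdown libraries held 93986 and 78429 peaks, LncMyod Control 81404 and 79941, ASC 69136 and 58791, and QSC 68231 and 63779. A region without a peak is therefore not shown to be closed. A peak lay over a RefSeq start of Pax7, Myf5, Cdh15, Calcr, Sdc4, Chodl and Myog in all 8 libraries, the satellite cell and myogenic markers with a start in the table used. Of 14 leukocyte genes with a start, 4 and 5 had a peak there in LncMyod Knockdown and 3 in each other library. The counts were 5 of 10 endothelial genes in every library, 6 to 7 of 10 fibroadipogenic, 7 to 8 of 9 mural, 1 to 2 of 3 glial and 0 to 1 of 12 hepatocyte genes. Their part in the results was not tested.

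The LncMyod Knockdown libraries held fewer of the members than of other regions of isolated cells. LncMyod Knockdown replicate 1 held 459 members (35.5%) and replicate 2 held 209 (16.2%), against 66.7% and 55.5% of all merged regions. That background includes regions found through LncMyod Knockdown peaks themselves. Those peaks also took part in the merge of member regions. Members held by both LncMyod Knockdown libraries had a median width of 1004.5 bp, against 758.5 bp for those held by neither. At least 1 of the 2 libraries held 530 members (41.0%, against 76.1% of all merged regions), both held 138 (10.7%, against 46.1%), and 762 (59.0%, against 2.69% of all regions of isolated cells) were held by neither. Regions of isolated cells with 1 LncMyod Control peak were held by the LncMyod Knockdown libraries in 79.1% and 43.8% of cases, and those with both in 99.6% and 96.2%. The members were the lowest of these classes in each LncMyod Knockdown library. With 2 libraries a group an exact permutation test cannot give a p under 0.333, so these shares have no test.

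**Figure D2:**
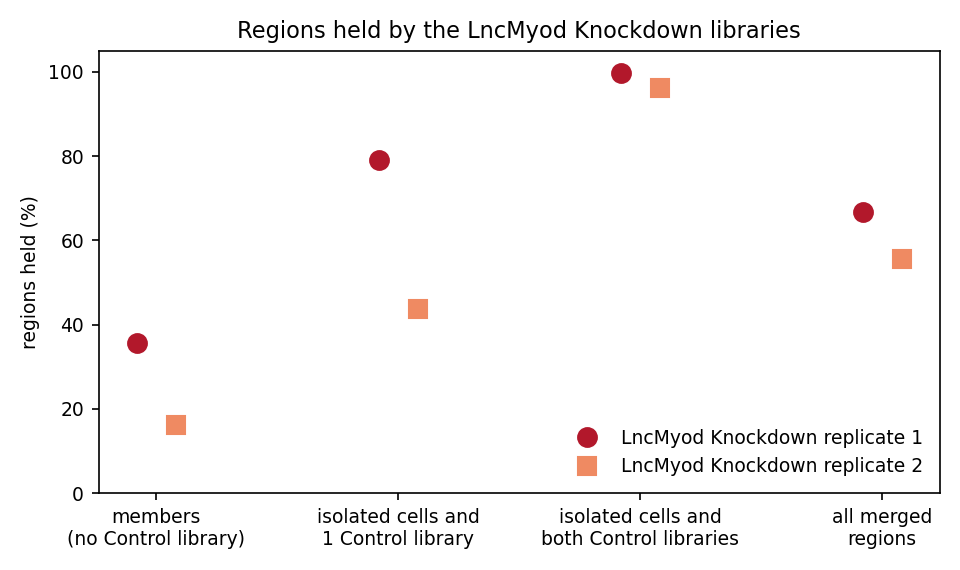
Percentage of regions held by LncMyod Knockdown replicate 1 (circles) and replicate 2 (squares) among members, regions of isolated cells with 1 and with both LncMyod Control peaks, and all merged regions. Members sit lowest at 35.5% and 16.2%, against 99.6% and 96.2% for regions with both LncMyod Control peaks.

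The same shares were read within the bins of strength, inside which members and other regions were not matched further. In the weakest bin, LncMyod Knockdown replicate 1 held 33.6% of members and replicate 2 held 16.0%. The shares there were 78.6% and 43.2% with 1 LncMyod Control peak, and 99.1% and 91.8% with both. In the strongest bin the shares were 52.6% and 31.6% of only 19 members. They were 87.5% and 53.1% there with 1 LncMyod Control peak, and 99.97% and 99.6% with both. Where a LncMyod Knockdown peak lay in a member it was weak, with a median fold of 2.55 in replicate 1 and 2.54 in replicate 2, against 4.74 and 4.35 in regions with both LncMyod Control peaks. Only 26 and 3 of the LncMyod Knockdown peaks in members had a −log10 q of at least 5. Of the 117 members with a −log10 q of at least 5 in all 4 isolated libraries, 63 were held by at least 1 LncMyod Knockdown library. In 9 of them a LncMyod Knockdown peak reached the same value. The gap between the LncMyod Knockdown replicates moved with list length. With every list cut to its 58791 strongest peaks there were 3198 members, and replicate 1 held 18.5% of them against 29.1% for replicate 2, which turns their order.

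Each library was also left out of the rule and then read on the regions so found. Without LncMyod Control replicate 1 there were 1958 regions, of which that library held 666 (34.0%). Without LncMyod Control replicate 2 there were 1890, of which it held 598 (31.6%). On the same 2 sets LncMyod Knockdown replicate 1 held 50.3% and 49.4%, and replicate 2 held 24.9% and 25.6%. The left-out LncMyod Control library thus lay between the LncMyod Knockdown libraries. Over all merged regions LncMyod Control replicate 1 held 57.6% and replicate 2 held 56.6%. Of the regions found without them, ASC replicate 1 held 81.1% (49.1% of all merged regions), QSC replicate 1 held 88.8% (48.4%) and QSC replicate 2 held 83.5% (45.2%). ASC replicate 2 held 44.5% of those found without it, near its 41.6% of all merged regions.

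The strongest members, by the weakest of their ranks in the 4 isolated libraries, lay inside genes of unlike function. A site in the uncharacterised gene Gm34630 (chr18:5402401-5403041) led them. Its fold was 2.81 and 3.22 in LncMyod Knockdown, 8.31 and 6.76 in ASC, and 8.78 and 6.52 in QSC. Fnip2, whose product binds folliculin, held a member at chr3:79542563-79544157 with folds of 3.67 and 3.06 in LncMyod Knockdown, 7.09 and 4.74 in ASC, and 7.37 and 7.47 in QSC. In both, every isolated library was above both LncMyod Knockdown libraries, but folds of different libraries are not on 1 scale. The member in Amhr2, a receptor for anti-Müllerian hormone (chr15:102450788-102451486), read 2.75 and 2.59 in LncMyod Knockdown, 7.18 and 4.51 in ASC, and 5.81 and 5.41 in QSC. That in 2610307P16Rik (chr13:28823227-28824318) read 3.25 and 3.01, 6.10 and 5.16, and 5.95 and 6.87 in the same groups.

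Other strong members had no LncMyod Knockdown peak. Igf2bp2, an mRNA-binding protein of developing and regenerating muscle, held 1 at chr16:22092385-22093063, with folds of 6.47 and 4.57 in ASC and 5.92 and 5.66 in QSC. Jmy, an actin nucleator and p53 cofactor, held 1 at chr13:93488466-93488962, with 7.11 and 5.19 in ASC and 5.66 and 5.06 in QSC. Rbms3, an RNA-binding protein, had 5.46 and 4.21 in ASC and 5.39 and 5.14 in QSC at chr9:116946755-116947342. The member in 4930526H09Rik (chr13:110881720-110883244) had 5.93 and 4.16 in ASC and 5.48 and 6.13 in QSC. All 4 isolated libraries had a fold above 4 at each of these sites. Lrp6, the Wnt co-receptor, held a member at chr6:134450130-134451625 with a fold of 2.48 in LncMyod Knockdown replicate 1 and none in replicate 2, 5.199 and 4.25 in ASC, and 7.13 and 6.54 in QSC. Clstn2, a calsyntenin, had the opposite single peak at chr9:97678900-97679579, with 2.55 in LncMyod Knockdown replicate 2, 5.10 and 4.21 in ASC, and 5.67 and 6.13 in QSC. Next in strength among members held by both LncMyod Knockdown libraries was 1 in the noncoding gene Pvt1 (chr15:62198307-62199212), with 2.81 and 2.72 in LncMyod Knockdown, 4.57 and 4.49 in ASC, and 5.07 and 4.55 in QSC. Next among those held by neither was 1 outside genes at chr4:56322796-56323785, with 6.43 and 4.16 in ASC and 6.20 and 6.45 in QSC.

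Between injured and uninjured muscle, 99 members had less covered length in ASC than in QSC and 34 had more. The test was limma on log2(scaled covered bp + 200 bp) over the 4 isolated libraries, with Benjamini-Hochberg adjusted p under 0.05 over the 72158 regions that at least 2 of them held. As shares of the members these are 7.66% and 2.63%, against 17.1% and 12.7% of all regions fitted, which include regions with no peak in 1 group. Over the 38670 regions held by all 4 libraries the same fit called 3.01% less and 3.79% more. The median log2 difference of the members was -0.15, against 0.02 over those 38670, and 805 members (62.3%) were below 0 against 46.0%. With only peaks of a −log10 q of at least 5 the balance turned, with 17 of 579 members less and 22 more, a median of 0.03, and 270 members below 0 against 309 above. A fit on the 38670 alone, added after the data were seen, called 47 members less and 10 more, with backgrounds of 1.11% and 1.38%. Calls were 0 and 0 in limma without ASC replicate 2, QSC replicate 1 or QSC replicate 2. At an unadjusted p under 0.05 those fits gave 222, 109 and 99 members less and 90, 47 and 56 more.

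Among members with less in ASC, the site in Man2a1, a Golgi mannosidase of N-glycan processing (chr17:64683931-64685997), had 343 and 327 bp in ASC against 2064 and 1960 bp in QSC. Its log2 difference was -1.999 ± 0.09 (SE; limma adjusted p = 0.00313). Medag, known for a role in fat cell formation, had 541 and 447 bp in ASC and 1917 and 1880 bp in QSC (-1.55). The Ksr1 site, in the gene of a scaffold of the Ras and MAP kinase pathway, had 537 and 443 bp in ASC and 1805 and 1797 bp in QSC (-1.49). At Sptb, which encodes a beta spectrin, it was 430 and 309 bp in ASC and 1884 and 1591 bp in QSC (-1.73). All 4 were chosen by their p, so that the groups lie apart was fixed by the choice. The other 4 of the 8 with the smallest p lay in Gm31870 and Gm35882 and outside genes on chromosomes 3 and 16.

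Among members with more in ASC, Epb41l1, a band 4.1 protein that links membrane and cytoskeleton, held the site with the smallest p (chr2:156455623-156457614). It had 1976 and 1779 bp in ASC against 399 and 383 bp in QSC, a log2 difference of 1.86 ± 0.09 (SE; limma adjusted p = 0.00313). Cdkal1, a tRNA-modifying enzyme, had 1273 and 1248 bp in ASC and 292 and 238 bp in QSC (1.70). Pdpn, the membrane glycoprotein podoplanin, had 1191 and 1087 bp in ASC and 272 and 200 bp in QSC (1.67). Sites in Zfp469 (1.36), Cacnb1 (1.33), which encodes the beta subunit of the muscle calcium channel, and Hhat (1.17), the Hedgehog acyltransferase, and 2 sites outside genes on chromosome 1 completed the 8. Peaks of 14 of the 34 members with more in ASC (41.2%) and 35 of the 99 with less (35.4%) were found in at least 1 LncMyod Knockdown library, against 41.5% of the other 1159 members.

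**Figure D3:**
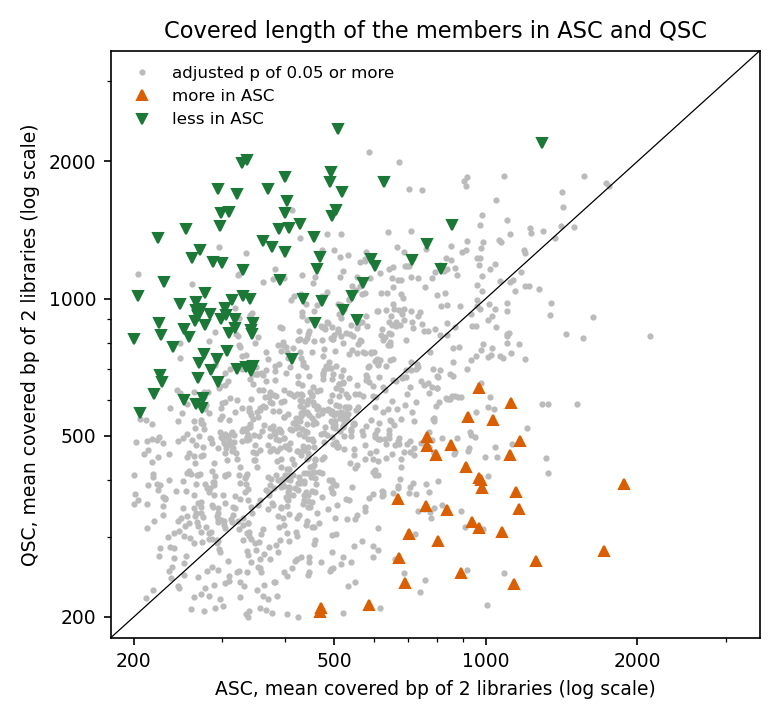
Mean covered bp of the 2 ASC libraries (horizontal axis) and of the 2 QSC libraries (vertical axis) for each member, on log axes, unscaled; orange triangles mark the 34 members with more in ASC and green triangles the 99 with less (limma, adjusted p under 0.05). More points lie above the diagonal, where QSC is higher, than below it, and the green sites include Man2a1 with 335 bp in ASC and 2012 bp in QSC.

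Members lay away from gene starts more often than other regions of isolated cells. Strength was not matched in this comparison, and 79.8% of members but 30.3% of regions with both LncMyod Control peaks lay in the weakest bin. Outside chromosome 18, which has no entry in the promoter table, 96 of 1245 members (7.71%) lay within 1 kb of a start, against 31.7% of regions with both LncMyod Control peaks, 11.9% of those with 1 and 11.4% of all merged regions. A start lay inside 61 members (4.90%). The median distance to a start was 21.7 kb for members, 10.4 kb for regions with both LncMyod Control peaks and 20.1 kb for all merged regions. The share of members within 1 kb depended on how peaks were taken. It was 18.8% with a −log10 q of at least 5, 15.1% with equal list lengths and 16.3% where peaks had to cover at least 50% of a region. Shares of the other classes under these settings are not given here, so these values have no like comparison. The body of a protein-coding gene contained or touched 726 members (56.2%), against 69.0% with both LncMyod Control peaks and 59.6% of all merged regions. In no gene lay 427 members (33.0%), against 23.5% with both LncMyod Control peaks and 32.2% of all merged regions. Exons and introns were not separated, since the gene table used holds only gene bodies. The table lacks a start for some genes, and within 1 kb of either end of a gene in the full gene table there were 162 members (12.5%), against 39.1% of regions with both LncMyod Control peaks and 17.4% of all merged regions.

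**Figure D4:**
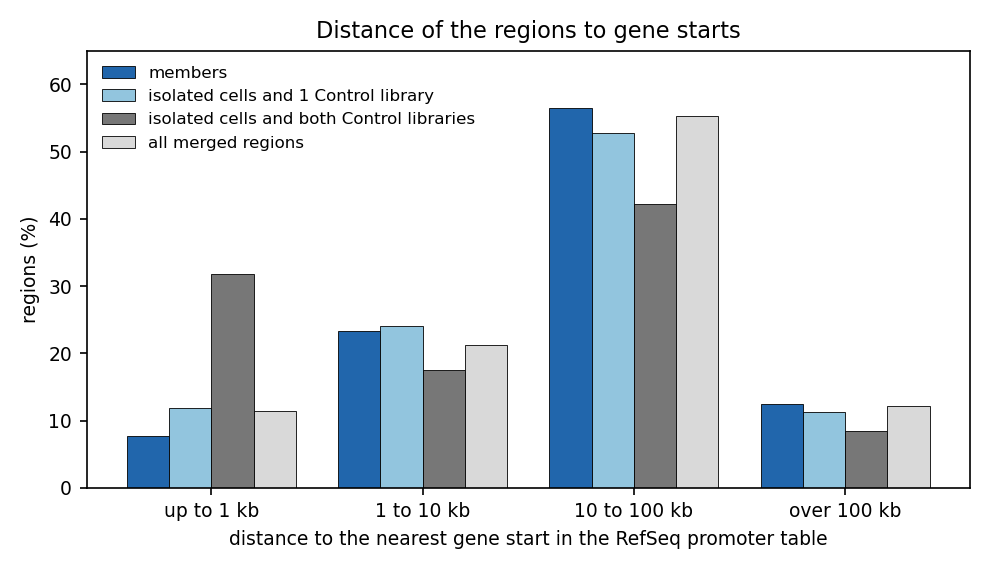
Percentage of regions by distance to the nearest RefSeq gene start, for members, regions of isolated cells with 1 and with both LncMyod Control peaks, and all merged regions, outside chromosome 18. Members have 7.71% within 1 kb, against 31.7% for regions with both LncMyod Control peaks.

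Most members had no other member close by. Another member lay within 10 kb of 56 of them, and the median distance to the next was 302.9 kb. These 2 values have no background beside them, so whether members lie closer or further apart than other sites was not tested. They were not isolated from persisting sites, since 711 members (55.0%) had a region held by all 8 libraries within 10 kb, against 47.4% of regions with both LncMyod Control peaks. A region held by LncMyod Control lay within 1 kb of 112 members (8.67%), and the shortest such gap was 71 bp. Another such region lay as near to 8.54% of regions with 1 LncMyod Control peak and 5.41% of those with both. By chromosome, members made up between 2.36% of the isolated-cell regions on chromosome 11 and 4.97% on chromosome 14, where there were 68.

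With 10 kb added on both sides of each gene, members lay at the loci of 900 protein-coding genes. Of these, 92 had at least 2 members and 10 had at least 3. Pde4b, a phosphodiesterase that breaks down cyclic AMP, had the most, with 5 of its 19 isolated-cell regions. Over all loci of protein-coding genes the share was 2.89%, and loci with many regions have more chances of several members. None of the 5 had a peak in LncMyod Knockdown replicate 2, and 1 (chr4:102555543-102555916) had a peak in replicate 1. Folds at that member were 3.60 in LncMyod Knockdown replicate 1, 3.42 and 2.97 in ASC, and 3.07 and 3.00 in QSC. The member at chr4:102520809-102521927 had folds of 4.19 and 2.94 in ASC and 6.45 and 6.38 in QSC. The member at chr4:102275760-102276450 had 2.80 and 2.71 in ASC and 4.67 and 5.01 in QSC. At chr4:102607841-102609319, just past the end of the gene, folds were 4.67 and 3.05 in ASC and 2.36 and 2.46 in QSC. Its covered length did not follow that order, with 1327 and 624 bp in ASC and 1415 and 1479 bp in QSC. Folds of different libraries are not on 1 scale. With only peaks of a −log10 q of at least 5, no member remained at Pde4b. Other regions of the locus persisted, and 11 of its 49 merged regions were held by all 8 libraries.

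**Figure D5:**
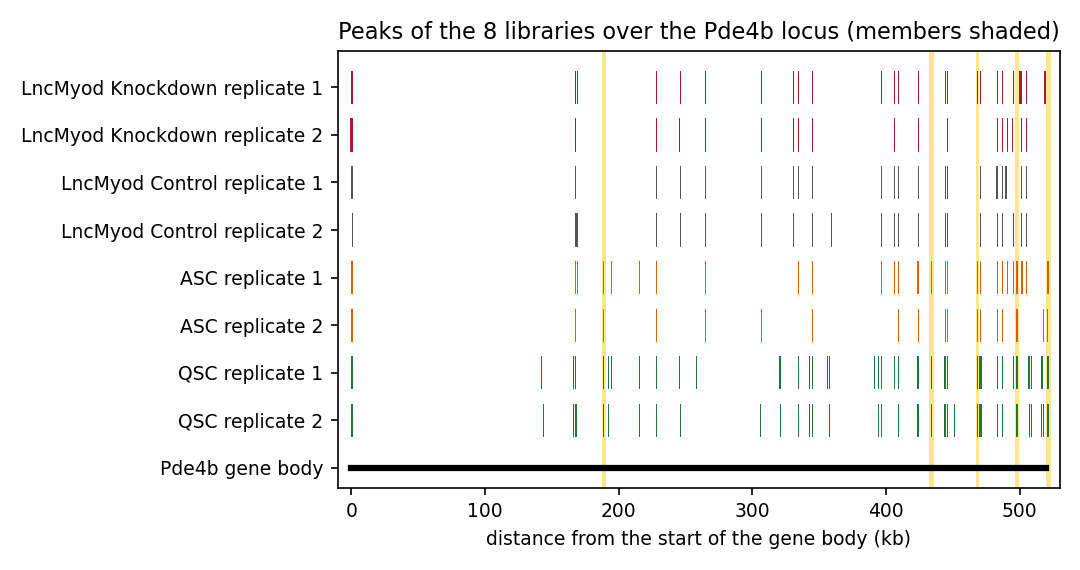
Peaks of the 8 libraries over the Pde4b locus by distance from the lower-coordinate end of the gene body in kb, with the 5 members shaded (shading widened to be visible). ASC and QSC peaks fall in all 5 members, at 188.4 to 520.5 kb, and LncMyod Control peaks in none.

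Ltbp1, which encodes a latent TGF-beta binding protein of the matrix, had 4 members among 19 isolated-cell regions. The strongest (chr17:75210988-75211529) had a fold of 3.37 in LncMyod Knockdown replicate 1, 5.47 and 4.07 in ASC, and 5.93 and 4.55 in QSC, and the other 3 had no LncMyod Knockdown peak. Aopep, an aminopeptidase, had 4 of 32, and Pakap, an anchor of protein kinase A, 4 of 34. Cacna1c, the pore subunit of an L-type calcium channel, had 3 of 14, and both LncMyod Knockdown libraries held all 3. Its member at chr6:118839005-118840333 had folds of 2.55 and 2.55 in LncMyod Knockdown, 5.37 and 3.53 in ASC, and 7.26 and 6.45 in QSC. Tbc1d2b, a Rab GTPase activator, had 3 of 7, Clstn2 3 of 9, the transcription factor Sox5 3 of 14, the salt-inducible kinase Sik3 3 of 16, and the splicing regulator Mbnl2 3 of 21. Of those at the Tbc1d2b locus, 2 lay inside the neighbouring gene Adamts7. At the Tbc1d2b, Clstn2 and Sox5 loci, 1 member each was held by both LncMyod Knockdown libraries, and at Tbc1d2b it was 1 of those inside Adamts7. With a −log10 q of at least 5, Aopep, Tbc1d2b and Sox5 had 0 members, Sik3 had 2, and Ltbp1, Pakap, Clstn2, Cacna1c and Mbnl2 had 1 each. That setting also drops weak LncMyod Control peaks and applies the rule anew, so these need not be the sites named above.

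Starts of 34 protein-coding genes lay inside a member, and 4 of these genes had another start in a region that all 8 libraries held. The Ppp1r36 member, the strongest of them, had folds of 2.83 and 2.59 in LncMyod Knockdown, 4.93 and 3.63 in ASC, and 6.03 and 4.46 in QSC. The Cxcl3 member (chr5:90785651-90786518), over the sequence given above, had no LncMyod Knockdown peak, folds of 4.32 and 2.93 in ASC, and 4.15 and 3.39 in QSC. The Cxcl2 member (chr5:90903014-90903967) had 2.62 in LncMyod Knockdown replicate 1 and none in replicate 2, 3.69 and 3.57 in ASC, and 3.94 and 3.14 in QSC. Both chemokine sites ranked below the median peak in at least 1 isolated library, and their ASC and QSC folds overlapped. The Usp54 member had 3.32 and 2.73 in ASC and 3.07 and 3.14 in QSC. Esm1, a secreted proteoglycan of blood vessels, Utrn, the dystrophin relative utrophin, Rhbdd1, a rhomboid protease, the chloride channel gene Cftr, Gm14322 and Gm28729 were the other 6 of the 10 strongest. The locus of a further chemokine gene, Ccl17, named here after its values were seen, had 2 members among 3 isolated-cell regions. The loci of Jmy, Dcstamp and other genes also had 2 of 3, and the share over all protein-coding loci was 2.89%. Both Ccl17 members lay outside gene bodies and were held by LncMyod Knockdown replicate 1.

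In G and C content, promoter windows in members were near all promoter windows and below those in regions with both LncMyod Control peaks. These classes were not matched for strength. A member contained a start of 63 RefSeq windows, noncoding genes included, with a median of 54% G and C, against 62.3% for 13899 windows in regions with both LncMyod Control peaks and 53% for all 31365 windows. At least 60% G and C was found in 16 of the 63 (25.4%), against 60.7% with both LncMyod Control peaks and 30.0% of all. GGGCGG, the Sp and KLF box, was in 42.9% of member windows, against 66.6% and 36.0%. CANNTG, the E-box read by myogenic and other basic helix-loop-helix factors, was in 81.0%, against 62.1% and 72.2%. TTGGCA, part of the nuclear factor I site, was in 14 windows (22.2%), against 10.4% and 14.1%. TGANTCA, the AP-1 site, was in 3 (4.76%), against 5.13% and 7.85%, and CCGGAAGT, an ETS site, in 0 against 7.82% and 3.95%. Both strands were searched, CANNTG includes the E-boxes CACCTG (27.0%, against 18.2% and 20.5%) and CAGCTG (12.7%, against 16.0% and 16.3%), and windows of 1 gene can overlap.

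Members were also counted at the loci of gene groups of satellite cell biology. Members were 8 of the 200 isolated-cell regions at 30 quiescence genes (4.0%), against 2.89% over all protein-coding loci. They lay at Nfia and Nfib, nuclear factor I transcription factors, and Tgfbr3, a TGF-beta co-receptor, with 2 each, and at Foxo3 and the surface proteoglycan gene Sdc4 with 1 each. The stronger Nfia member (chr4:98031855-98033408) had folds of 2.33 in LncMyod Knockdown replicate 1, 5.12 and 3.35 in ASC, and 4.15 and 4.40 in QSC, while neither Nfib nor Tgfbr3 members had a LncMyod Knockdown peak. That Nfia member (log2 difference -0.59) and both Nfib members (-1.17 and -0.99) had less covered length in ASC in limma (adjusted p of 0.0184, 0.0120 and 0.0244). The Tgfbr3 members did not pass that test. No member lay at the 31 genes of the myogenic program (0 of 120 regions), Pax7, Myf5, Myod1 and Myog among those checked, nor at the 33 cell cycle genes (0 of 87). At the share of all loci, few members would fall at lists of this size.

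Growth factor receptor genes had 7 members among 126 regions (5.56%). Ddr2, a collagen receptor kinase, had 2 with no LncMyod Knockdown peak, and the stronger (chr1:170042627-170043562) had folds of 4.26 and 3.05 in ASC and 6.15 and 6.48 in QSC. Met, the receptor of hepatocyte growth factor, which activates satellite cells, had 2, and the stronger (chr6:17506807-17507669) had 2.53 in LncMyod Knockdown replicate 1, 5.63 and 4.40 in ASC, and 2.57 and 3.36 in QSC. Egfr, the epidermal growth factor receptor, had 2, and 1 of them (chr11:16864970-16865575) had 3.27 and 3.53 in LncMyod Knockdown, 4.41 and 2.74 in ASC, and 2.92 and 2.49 in QSC. That Ddr2 site was 1 of the 99 members with less covered length in ASC, with 613 and 498 bp in ASC and 936 and 860 bp in QSC (log2 difference -0.49 ± 0.09, SE; limma adjusted p = 0.0340), while none of the Met and Egfr members passed that test. Spred2, an inhibitor of Ras signalling, had 1.

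Matrix and adhesion genes had 12 of 216 regions (5.56%) at 11 genes, among them the integrin genes Itga5 with 2 in its flanks, of which 1 lay in the neighbouring gene Zfp385a, and Itga9 and Itgb1 with 1, the laminin genes Lama5 and Lamc1, and the collagen genes Col3a1, Col6a1 and Col15a1. Immediate early and AP-1 genes had 5 of 93 (5.38%), at Fosl2, Egr3, Klf6, Hspa1b and Bach2, and the members at Fosl2 and Egr3 were held by both LncMyod Knockdown libraries. Wnt, BMP and TGF-beta genes had 5 of 120 (4.17%), at Lrp6, Bmp4, Bmp6, Smad1 and Smad7. Contractile genes had 4 of 127 (3.15%), at Actn2, Myom1, Myom3 and Nebl, and Notch genes 1 of 96 (1.04%), at the coactivator gene Maml3. Genes that mark other cell types had 1 or 2 members each for fibroadipogenic (2 of 44 regions, at Col3a1 and Prrx1), endothelial (2 of 52, at Pecam1 and Ptprb), leukocyte (1 of 18, at Spi1) and mural cells (1 of 34, at Acta2), and 0 of 10 for hepatocytes. Between ASC and QSC, limma called less covered length in ASC at the Col15a1 and Bach2 members (log2 differences of -0.99 and -1.45). It called more at the Myom1 member (0.98). No list was tested for enrichment.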

How the data were processed

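ATAC-seq libraries of satellite cells were deposited as broad peaks, 1 list for each library. Per the submitters' processing notes, reads were handled with MACS2 2.1.1, Bowtie2 2.3.2, bedtools 2.26.0, SAMtools 1.3, Picard 2.9.2, Trimmomatic 0.36 and bcl2fastq 2.19 on build mm10. Their settings, any shift of read ends, and the filter applied to the lists were not stated in the labels. For every peak the authors deposited the peak caller's fold enrichment, −log10 p and −log10 q. A display score, also deposited, follows the −log10 q. Only fold and −log10 q were used, to rank, filter or describe the peaks of 1 library. Neither read counts nor depths were given, so no counting interval is possible, and a deeper library can give more and wider peaks.

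Regions were merged and counted with numpy 2.4.6 and pandas 2.3.3 in Python 3.11.15. ASC and QSC were compared with limma 3.58.1 (R 4.3.3, trended prior), on log2(scaled covered bp + 200 bp), each library scaled by its total covered length. Differences on this scale understate the change of narrow peaks. Nothing in the labels says that replicates were separate animals or cultures, and p-values therefore measure the spread between these libraries alone, which may be technical. Gene bodies, starts and promoter sequences came from RefSeq (GRCm38.p6, the same genome as mm10); 79.6% of protein-coding genes had a start there. No genome was used, so sequence away from promoters was not analysed here.

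The members and gene lists were chosen with earlier results of these data known. Regions and genes were named by rule: the 10 members with the best weakest rank in the 4 isolated libraries, the 5 best of those held by both and by neither LncMyod Knockdown library, the 8 with the smallest p in each direction of ASC against QSC, genes with at least 3 members or, in a list, at least 2, and the 10 strongest members over a protein-coding start. Genes with 1 member in a list are named to make up its count, and the member count of 1 marker list is not reported here. Alternatives were a −log10 q of at least 5, equal list lengths, cover of at least 50% of a region, a merge gap of 500 bp, other pseudocounts, scalings and filters, a replicate block, and leaving out each library.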

Additional observations from a re-analysis of the deposited data

How the results depend on the processing

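The number of members was 579 with a −log10 q of at least 5 and 3198 with equal list lengths, which kept 117 and 899 of the 1292 members. Peaks over at least 50% of a region gave 1587, which kept 446 (34.5%). The share held by at least 1 LncMyod Knockdown library was 29.0% with −log10 q of at least 5, 37.4% with equal lists and 44.4% with 50% cover, and the share held by both was 5.18% with −log10 q of at least 5. The share within 1 kb of a start was 18.8%, 15.1% and 16.3% under those 3 settings and 12.5% with either gene end, and the median width was 929, 936 and 952 bp under the same 3. Leaving out 1 library gave 1292 to 2901 members, 5.80% to 9.14% near a start and widths of 769 to 842 bp. Without 1 ASC, QSC or LncMyod Control library, 33.1% to 55.5% were held by at least 1 LncMyod Knockdown library. Both LncMyod Knockdown libraries then held 7.34% to 20.4%. With a LncMyod Knockdown library left out, only the share of the other library remained, 16.2% or 35.5%. Members more and less covered in ASC than in QSC numbered 1 and 15 with no filter, 52 and 153 with all 8 libraries, 22 and 17 with −log10 q of at least 5, 119 and 253 with equal lists, and 10 and 47 over regions held by all 4. They ranged over 0 to 31 and 0 to 111 without 1 library. With ASC replicate 1 left out limma called 31 and 111, and with any of the other 3 left out 0 and 0. With the replicate number as a block there were 21 and 63. The numbers did not pair the libraries: deviations of same-numbered ASC and QSC libraries correlated at r = 0.0351 over the 72158 fitted regions, which are not independent. Of the member counts at 17 named loci, 39 of the values under another setting moved by over 1.5 times. With a −log10 q of at least 5, Nfib, Tgfbr3, Egfr, Ddr2 and Itga5 had 0 members and Nfia and Met had 1, and without ASC replicate 2 Nfia had 6, Nfib 4 and Pakap 7. Members found under another setting need not be the sites named above. The cause of these shifts was not tested. Whether a region without a LncMyod Control peak was closed, or open below the limit of a list of unknown depth, cannot be told apart.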

Other observations

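On chromosome X, which the rule leaves out, 24 of 692 isolated-cell regions (3.47%) had no LncMyod Control peak, beside 3.34% on chromosomes 1 to 19. LncMyod Knockdown replicate 1 held 8 of the 24 and replicate 2 held 1. The site at Araf, a kinase of the Raf family (chrX:20797966-20799044), had folds of 4.47 and 3.03 in ASC and 4.91 and 5.12 in QSC.

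Of 919 miRNA hairpins with coordinates on chromosomes 1 to 19, 132 lay in a region held by all 4 isolated libraries and 1 of these, Mir6390, lay in a member (chr14:105623642-105623770).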
